A study of Drosophila melanogaster with 32 samples.

Results

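The cuticle protein genes of Drosophila melanogaster were followed here in newly hatched adult flies. Members were taken by their FlyBase symbol, which had to begin with Cpr and a digit, Twdl, Lcp, Ccp or Pcp, and a gene was kept when at least 10 counts were present in at least 4 of the 32 libraries. The gene table held 121 such symbols, and 72 of them passed, among 14186 of 17490 genes that passed the same rule. These were 49 of 70 Cpr genes, 13 of 26 Twdl genes, 6 of 7 Ccp genes, 3 of 17 Lcp genes and the only Pcp gene. Of the 49 genes left below the rule, 12 reached 10 counts in 1 to 3 libraries and 7 had no count in any library.

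The libraries came from whole males and virgin females of 4 genotypes, with 4 replicates in each of the 8 groups. Wild type was Oregon R. The PofD119 mutant lacks the coding region of Pof, a protein that binds the small 4th chromosome, Zhr1 lacks the block of satellite repeats beside the centromere of the X chromosome, and PoX2Df1.688 lacks a short run of related repeats downstream of the X-linked gene CG1840. Each sample pooled 10 flies, 3 of them aged 6 to 8 h, 4 aged 14 to 16 h and 3 aged 22 to 24 h after hatching, so that every library averaged over the first day of adult life. Zhr1 males carried a wild type Y chromosome that is not translocated. The stocks were not brought into 1 genetic background, so a mutation and the background it came with cannot be told apart in any comparison with wild type.

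Insect cuticle is built from chitin fibres held in a matrix of proteins, which the epidermis secretes before and after each moult and which is then cross-linked and darkened. Cpr genes encode proteins with the Rebers-Riddiford consensus, a chitin-binding region. Twdl genes encode Tweedle proteins, named after a mutant with a changed body shape, whereas Lcp and Pcp stand for larval and pupal cuticle proteins and the Ccp genes form a cluster at cytological position 84A. A newly hatched fly still has a soft cuticle that it expands and tans, and it goes on adding layers to its inner cuticle for days.

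Library totals ran from 12186486 to 37992591 counts, and the cuticle genes took 0.249 to 0.446% of them. Pof was at 328 ± 15.3 counts per 1000000 of the library (CPM) in wild type males and 12.3 ± 1.06 in PofD119 males (SD, n = 4 each). In females it was low in wild type already, at 13.4 ± 0.695 CPM, and at 8.37 ± 1.67 CPM in PofD119. The log2 fold change was −4.74 in males and −0.69 in females. The yolk protein genes, which mark females, summed to 2031 to 8954 CPM in females and to 6.73 to 8.65 CPM in wild type male replicates 1, 3 and 4. Wild type male replicate 2 stood apart from its group at 358 CPM, and without it the calls of higher and lower cuticle genes (counts with it follow) were 9 and 15 in PofD119 males, 12 and 14 in Zhr1 males and 16 and 8 in PoX2Df1.688 males. The study calls the 4 pools of a group biological replicates, while the labels do not say whether they came from separate cultures, and every p-value measures the spread between these pools. Low counts were mostly even (70.1% of all values from 1 to 10 counts, and 84.9% of those of the cuticle genes), so that 1 fragment may often have given 2 counts.

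A few genes made up most of the cuticle gene RNA in these flies. Levels are given as CPM scaled by the trimmed mean of M-values (TMM), and the 72 genes spanned 0.164 to 902 CPM as means over 32 libraries. The 3 highest, Cpr49Ae, Cpr92F and Cpr100A, held 63.4% of the summed level and the 8 highest held 87.9%. Above 100 CPM there were 8 genes, 14 lay between 10 and 100, 26 between 1 and 10 and 24 under 1 CPM. Per kilobase of exon the order was led by Cpr49Ae at 760.3 CPM per kb, Cpr92F at 424 and Cpr100A at 388, followed by Cpr49Ab at 210.4, Cpr62Bc at 197 and Cpr97Eb at 118. All 6 are Rebers-Riddiford genes.

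The summed level of the 72 genes was lower in PofD119 of both sexes than in wild type. In females it was 3909, 4150, 4178 and 4357 CPM in wild type replicates 1 to 4 and 3233, 3209, 3230 and 2842 CPM in PofD119. In males it was 3713, 4381, 3720 and 4378 CPM in wild type and 2743, 3049, 3222 and 3038 CPM in PofD119. Neither pair of groups overlapped. Zhr1 females had 2505, 3419, 2594 and 3252 CPM, all under the lowest wild type female, whereas Zhr1 males had 4536, 3926, 3598 and 3186 CPM and lay on both sides of the wild type males. PoX2Df1.688 females had 3145, 4140, 3128 and 2988 CPM, with replicate 2 inside the wild type range and the others below it, and PoX2Df1.688 males were between 3502 and 3713 CPM. Without the top 3 genes the mean sum was 1370 ± 80.2 CPM in wild type females and 944 ± 136 in Zhr1 females, and the remaining 6 groups had means between 1224 and 1516 CPM. PofD119 and wild type then overlapped in both sexes. In females PofD119 had 1093 to 1363 CPM beside 1260 to 1449 in wild type, and in males 1139 to 1348 beside 1291 to 1622. In RNA from whole flies, fewer cells of a type and less RNA per cell cannot be told apart.

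**Figure D1:**
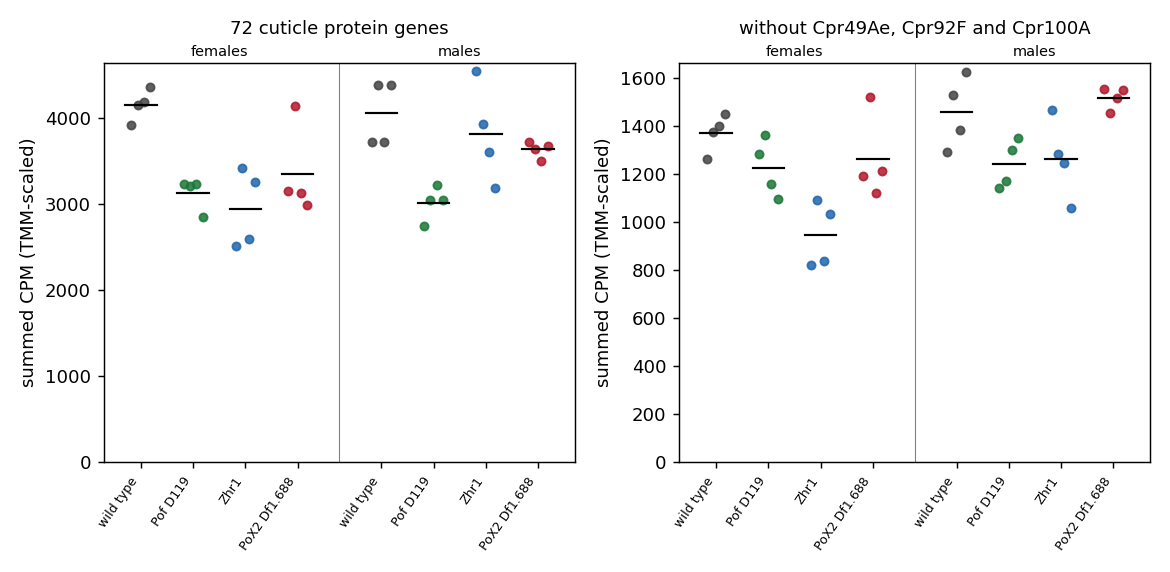
Summed CPM (TMM-scaled, linear axis from 0) of all 72 cuticle genes (left) and of the same genes without Cpr49Ae, Cpr92F and Cpr100A (right) in the 8 groups, with a point for each library and a bar at the mean. In the left panel the PofD119 females (2842 to 3233 CPM) and males (2743 to 3222 CPM) lie under every wild type library of their sex, and PoX2Df1.688 female replicate 2 stands apart at 4140 CPM. In the right panel PofD119 and wild type overlap in both sexes.

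Each mutant was then compared with wild type within each sex, by edgeR's quasi-likelihood test with Benjamini-Hochberg adjustment over all genes tested (adjusted p under 0.05 counted as a call, and every adjusted p below is from this test). Of the 72 genes, 58 could be tested in females and 65 in males, the others having too few counts in that sex. The 3 comparisons within a sex share their wild type libraries.

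In PofD119 females 6 of 58 cuticle genes were higher and 14 lower, where 8.08% of all genes tested were called higher and 8.4% lower. In PofD119 males 8 of 65 were higher and 16 lower, beside 13.6% and 11.6% of all genes. The share called lower was therefore 24.1% and 24.6% of the cuticle genes tested, above that of all genes, and the share called higher was 10.3% and 12.3%. Their median log2 fold change was −0.19 in females and −0.32 in males, whereas over all genes it was −0.00 and 0.00. Without wild type female replicate 4 the count of lower genes in females was 9, and without PofD119 male replicate 1 it was 10 in males. The count of higher genes in males was 4 without wild type male replicate 3 and 5 without PofD119 male replicate 3.

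In Zhr1 females 3 of 58 were higher and 21 lower, against 20.3% and 20.8% of all genes, and the median of the cuticle genes was −0.39 (all genes −0.01). In Zhr1 males 12 of 65 were higher and 16 lower, against 12.6% and 10.4%, with a median of −0.05 (all genes −0.00). As shares of the cuticle genes tested these were 5.17% higher and 36.2% lower in females, and 18.5% and 24.6% in males. The 3 higher genes in females became 1 without wild type female replicate 3 or 4 or Zhr1 female replicate 2, and the 16 lower genes in males became 10 without wild type male replicate 4.

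In PoX2Df1.688 more cuticle genes were called higher than lower in both sexes. In females 9 were higher and 6 lower, where all genes gave 8.9% and 10.5%, and in males 14 were higher and 9 lower, where all genes gave 11.5% and 9.4%. The shares of cuticle genes called lower, 10.3% and 13.8%, were thus near those of all genes, while 15.5% and 21.5% were called higher. Their median log2 fold change was 0.04 in females (all genes 0.02) and 0.14 in males (all genes −0.00). The female count of lower genes was 2 without wild type female replicate 3 and 3 without wild type female replicate 4 or without PoX2Df1.688 female replicate 1 or 4. Without PoX2Df1.688 female replicate 2, which stood apart in its summed level, the order in females turned to 7 higher and 9 lower. Without PoX2Df1.688 male replicate 2 the male count of higher genes was 9.

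Over the 6 comparisons 51 of the 72 genes were called at least once and 21 in none, 3 of which (TwdlE, TwdlU and Cpr47Eb) could be tested in neither sex. Of the 51, 20 were called only as higher, 24 only as lower and 7 in both directions in different comparisons. The share of all genes called at least once was not counted, so these numbers are not read as particular to cuticle genes. Cpr30F and Cpr64Aa were called in all 6, and no gene moved one way in all 6. By family, Pcp and the 3 Lcp genes gave no call in these comparisons, though Lcp65Ac and Lcp65Ag2 had too few counts to be tested in males. Of 41 Cpr genes tested in females, 6 were higher and 10 lower in PofD119 (all genes 8.08% and 8.4%), 1 and 16 in Zhr1 (20.3% and 20.8%) and 8 and 5 in PoX2Df1.688 (8.9% and 10.5%). Of 47 tested in males, 6 were higher and 14 lower in PofD119 (13.6% and 11.6%), 7 and 13 in Zhr1 (12.6% and 10.4%) and 11 and 5 in PoX2Df1.688 (11.5% and 9.4%).

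**Figure D2:**
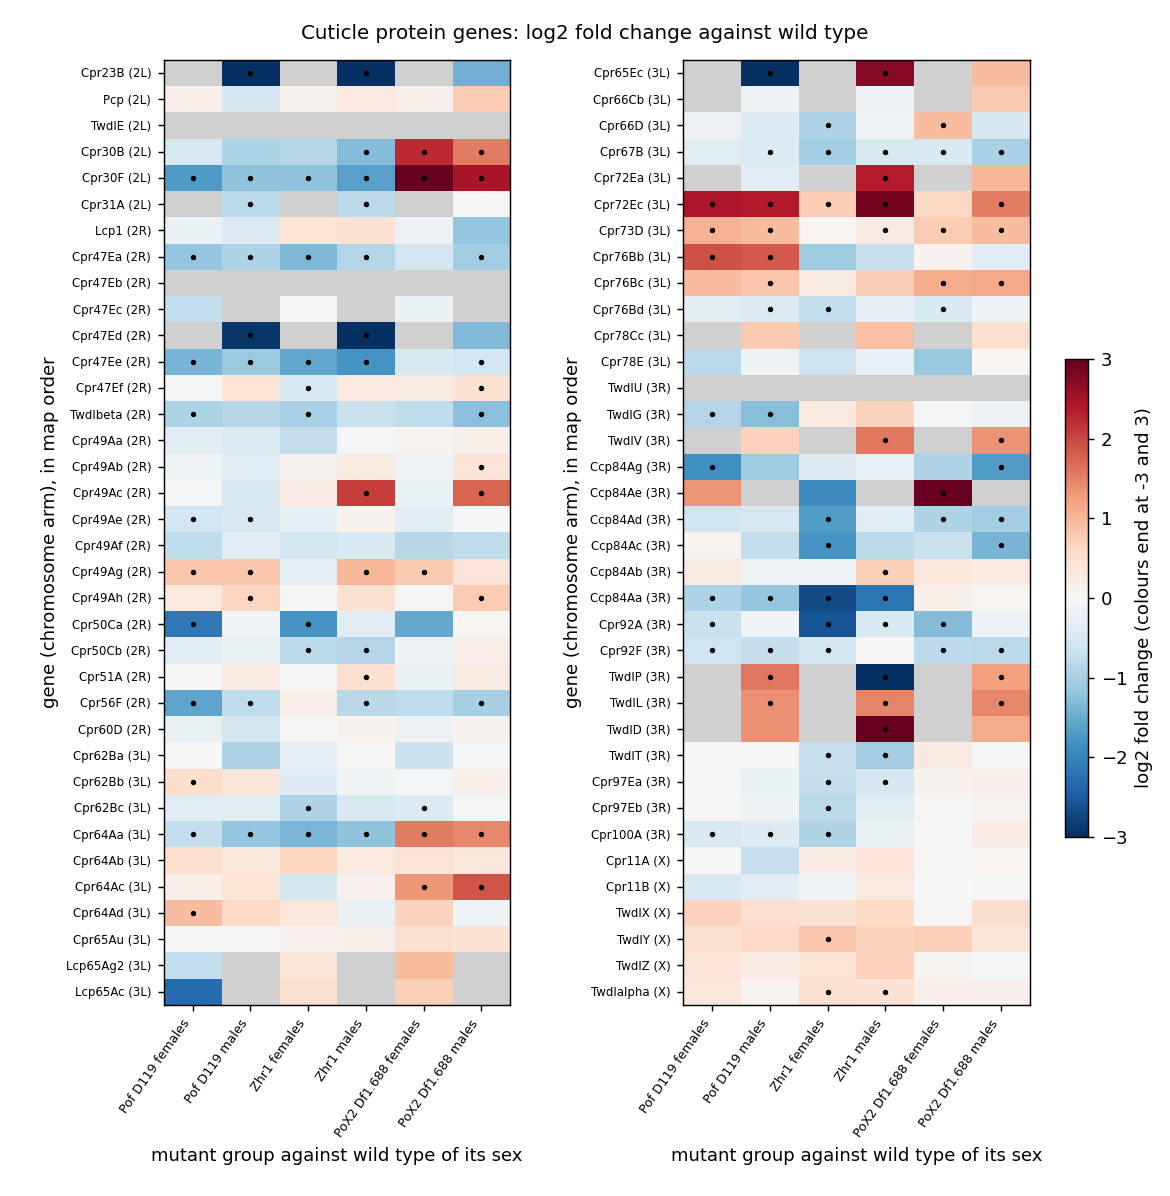
Log2 fold change of the cuticle genes (rows, in map order) in each of the 6 comparisons of a mutant with wild type of the same sex (columns), with colours ending at −3 and 3, dots at an edgeR adjusted p under 0.05 and grey for genes not tested. Cpr30F and Cpr64Aa are the only rows with a dot in every column, lower in PofD119 and Zhr1 and higher in PoX2Df1.688.

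The 3 most abundant genes were all called lower in PofD119 of both sexes. Cpr49Ae (FBgn0033728, 2R:12402216-12405108, dm6) had 1171, 1245, 1244 and 1254 CPM in wild type females and 851, 748, 945 and 783 CPM in PofD119 females. The groups did not overlap, and the log2 fold change was −0.57 ± 0.13 (SE; adjusted p = 0.00668, n = 4 each). In males it had 846, 952, 720.4 and 929 CPM in wild type and 565, 699, 703 and 524 CPM in PofD119. The call of this difference of −0.47 ± 0.13 (adjusted p = 0.0158) was lost without PofD119 male replicate 1 (adjusted p = 0.0515). In Zhr1 and PoX2Df1.688 females Cpr49Ae missed the threshold, with log2 fold changes of −0.30 (adjusted p = 0.0736) and −0.35 (adjusted p = 0.0734).

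Cpr92F (3R:20669571-20672821) was lower in 5 of the 6 comparisons. In males it had 994, 1247, 973 and 1170.2 CPM in wild type, 613, 746, 758 and 568 CPM in PofD119 and 699, 577, 548 and 601 CPM in PoX2Df1.688. Both mutants lay below every wild type library, by −0.71 ± 0.12 in PofD119 (adjusted p = 0.000217) and by −0.80 ± 0.12 in PoX2Df1.688 (adjusted p = 8.77e-05). Zhr1 males did not follow, with a log2 fold change of 0.04 (adjusted p = 0.852). In PoX2Df1.688 females Cpr92F had 582, 699.7, 612 and 339 CPM, beside 973, 925, 933 and 1025 CPM in wild type (−0.77 ± 0.17, adjusted p = 0.00507). In PofD119 females it had 664, 570.5, 761 and 587 CPM (−0.59, adjusted p = 0.0282) and in Zhr1 females 578, 790.5, 572 and 729 CPM (−0.55, adjusted p = 0.0184), all below every wild type female. The call in PofD119 females was lost without any 1 of the wild type replicates or without PofD119 replicate 2 or 4 (adjusted p 0.0513 to 0.0825), and that in Zhr1 females without Zhr1 replicate 1 or 3 (adjusted p = 0.0592).

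Several of the other abundant genes fell in Zhr1 females. Cpr100A (3R:30867521-30869184) had 506, 607, 601 and 629 CPM in wild type females and 265, 373, 285 and 358 CPM in Zhr1 females, which was −0.89 ± 0.14 on the log2 scale (adjusted p = 0.000147). It was also called lower in PofD119 females, at 435, 528, 367 and 379 CPM (−0.47, adjusted p = 0.0268), and in PofD119 males, at 426, 436, 461 and 598 CPM beside 582, 655, 645 and 657 CPM in wild type (−0.40, adjusted p = 0.0383), with 1 mutant library of each sex inside the wild type range. The female call was lost without PofD119 replicate 3 or 4 or wild type replicate 2, 3 or 4 (adjusted p 0.0591 to 0.0727), and the male call without PofD119 replicate 1, 2 or 3 or wild type replicate 2, 3 or 4 (adjusted p 0.0675 to 0.116). Cpr62Bc fell from 235 ± 21.4 to 126 ± 18.5 CPM (−0.92 ± 0.14, adjusted p = 0.000101), and Cpr97Eb from 122 ± 11.6 to 71.0 ± 10.8 CPM (−0.81 ± 0.16, adjusted p = 0.0011). Neither gene's groups overlapped. Cpr76Bd was called lower in 3 of the 6 comparisons. It fell in PoX2Df1.688 females, from 198, 225, 241 and 215 CPM in wild type to 161, 170, 133 and 168 CPM (adjusted p = 0.0155, and 0.0525 without wild type replicate 3). Zhr1 females, at 115, 162, 116 and 144 CPM, also lay below every wild type female. In PofD119 males it was called lower as well (adjusted p = 0.0118, and 0.0544 without wild type replicate 4). Cpr67B, singled out after its values were seen because it was lower in 5 comparisons, fell from 61.1 ± 5.13 to 30.4 ± 4.75 CPM in Zhr1 females (−1.03, adjusted p = 7.93e-05) and from 36.9 ± 2.22 to 18.2 ± 2.33 CPM in PoX2Df1.688 males (−0.97, adjusted p = 0.000104). Its calls in PofD119 males (adjusted p = 0.0409) and PoX2Df1.688 females (adjusted p = 0.035) were each lost in 6 of 8 fits with 1 library left out. That in Zhr1 males (adjusted p = 0.0183) was lost in 2 of 8.

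Genes that mark other tissues moved in Zhr1 females as well. All 4 muscle genes examined for the flight muscle, Act88F, fln, TpnC4 and Tm2, were called lower, beside 20.8% of all genes. Their summed level was 3572 to 4822 CPM beside 8559 to 11865 CPM in wild type females. Of 6 vitelline membrane and eggshell genes 3 were called higher and 0 lower, beside 20.3% and 20.8% of all genes. Their sum was 1199 to 2747 CPM beside 195 to 899 CPM, with Cp36 and Cp38 at 0.495 and 0.579 CPM in wild type. In PoX2Df1.688 females 2 of these 6 genes were also higher and 0 lower (all genes 8.9% and 10.5%). Of the 4 muscle genes 0 were higher and 1 lower there. The part of the muscle and eggshell genes in the lower cuticle gene levels of Zhr1 females was not tested.

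Cpr30F and Cpr64Aa stood out for moving one way in PoX2Df1.688 and the other way in PofD119 and Zhr1. Cpr30F (FBgn0051876, 2L:9932272-9933163) had 0.861, 1.32, 0.619 and 1.32 CPM in wild type females and 12.1, 9.07, 8 and 9.97 CPM in PoX2Df1.688 females, a 9.51-fold rise (log2 3.25 ± 0.26, adjusted p = 4.73e-07). In males it had 1.43, 0.863, 1.34 and 1.2 CPM in wild type and 6.19, 7.63, 6.98 and 5.09 CPM in PoX2Df1.688, a 5.5-fold rise (2.46 ± 0.32, adjusted p = 2.74e-05). Every PoX2Df1.688 library was thus above every wild type library of its sex.

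The same gene was lower in the other mutants. PofD119 females had 0.27, 0.524, 0.222 and 0.27 CPM of Cpr30F (−1.69 ± 0.32, adjusted p = 0.00185) and Zhr1 females had 0.359, 0.31, 0.603 and 0.533 CPM (−1.21 ± 0.32, adjusted p = 0.0076). Zhr1 males had 0.715, 0.267, 0.449 and 0 CPM (−1.63 ± 0.43, adjusted p = 0.0104). PofD119 males had 0.252, 0.487, 0.583 and 0.701 CPM (−1.21, adjusted p = 0.0278). No library of these 4 groups reached the wild type range of its sex, though the call in PofD119 males was lost without any 1 of wild type replicates 1, 3 and 4 or PofD119 replicates 1, 2 and 3 (adjusted p 0.0513 to 0.0807).

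Cpr64Aa (FBgn0035510, 3L:4207838-4209178) kept all 6 of its calls whichever library was left out. Females had 15.3, 22.0, 17.3 and 20.2 CPM in wild type, 11.5, 12.9, 10.6 and 10.1 CPM in PofD119, 6.52, 8.73, 5.83 and 8.32 CPM in Zhr1 and 52.2, 63.3, 49.5 and 54.3 CPM in PoX2Df1.688. These were log2 fold changes of −0.74 ± 0.14 (adjusted p = 0.00182), −1.37 ± 0.15 (adjusted p = 5.18e-06) and 1.57 ± 0.14 (adjusted p = 1.3e-06). The 4 genotypes formed separate ranges, with PoX2Df1.688 highest and Zhr1 lowest. In males wild type had 16.6, 18.6, 19.4 and 18.6 CPM, PofD119 7.3, 8.06, 8.01 and 9.38 CPM, Zhr1 8.16, 7.99, 7.24 and 7.4 CPM and PoX2Df1.688 45.5, 47.9, 50.4 and 47.7 CPM. The male changes were −1.15 ± 0.09 (adjusted p = 6.02e-08), −1.21 ± 0.10 (adjusted p = 4.94e-08) and 1.44 ± 0.09 (adjusted p = 3.58e-09), and here PofD119 and Zhr1 overlapped each other but not wild type.

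Cpr64Aa lies with Cpr64Ab, Cpr64Ac and Cpr64Ad in a cluster (3L:4207838-4216414) that is nested in the longer gene CG43367. The counting did not use strand, so intron RNA of CG43367 over their exons would be counted as theirs, and pairs over exons of 2 genes as neither. Cpr64Ac rose with its neighbour in PoX2Df1.688, from 2.72, 3.45, 3.58 and 4.02 to 6.22, 10.4, 6.95 and 10.0 CPM in females (1.31 ± 0.21, adjusted p = 0.000454). In males it went from 3.96, 2.31, 3.04 and 4.33 to 11.2, 13.8, 14.8 and 8.99 CPM (1.89 ± 0.24, adjusted p = 1.72e-05). Cpr64Ab was called in no comparison, and the call of Cpr64Ad in PofD119 females (0.92, adjusted p = 0.0285) was lost without wild type replicate 1 or 4 or PofD119 replicate 1 or 2 (adjusted p 0.0794 to 0.0892).

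Cpr30B (2L:9542878-9543658), on the same arm as Cpr30F, also rose in PoX2Df1.688. It had 0.729, 0.985, 0.516 and 0.841 CPM in wild type females against 2.22, 3.73, 3.44 and 5.16 CPM (2.25 ± 0.33, adjusted p = 0.000193). In males the values were 1.43, 0.274, 1.08 and 0.774 CPM against 2.92, 2.32, 2.21 and 2.86 CPM (1.55 ± 0.36, adjusted p = 0.00505). Neither pair of groups overlapped.

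Cpr47Ea and Cpr47Ee, 2 genes of a 6-gene cluster (2R:11251751-11272575) that were singled out after their values were seen, were each lower in 5 of 6 comparisons, and each of these calls held whichever library was left out. Cpr47Ea (2R:11251751-11253398) had 73.2, 70.01, 66.9 and 76.4 CPM in wild type females, 31.9, 36, 39.7 and 22.2 CPM in PofD119 (−1.15 ± 0.24, adjusted p = 0.00355) and 26.2, 35.8, 22.2 and 30.4 CPM in Zhr1 (−1.34 ± 0.24, adjusted p = 0.000541). In PoX2Df1.688 females it had 43.2, 77.9, 38.8 and 30.5 CPM, where replicate 2 was above the wild type range and the test missed the threshold (adjusted p = 0.104). Males had less of it, with 27.1, 39.2, 26 and 34.4 CPM in wild type. It fell to means of 16.7, 16.7 and 14.9 CPM in PofD119, Zhr1 and PoX2Df1.688 males (adjusted p 0.00543, 0.0086 and 0.00349).

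Cpr47Ee (2R:11265126-11266856) showed its largest fall in Zhr1 males. It had 17.6, 16.8, 13.4 and 17.1 CPM in wild type males and 5.6, 4.86, 4.38 and 3.51 CPM in Zhr1 males (−1.77 ± 0.14, adjusted p = 5.04e-08). PofD119 males had 7.47 ± 0.342 CPM (−1.11 ± 0.13, adjusted p = 6.53e-06). In females it went from 11.8 ± 1.62 CPM in wild type to 4.52 in PofD119 (−1.40 ± 0.22, adjusted p = 0.000361) and 4.07 in Zhr1 (−1.56 ± 0.23, adjusted p = 8.84e-05). Cpr47Ed, between them on the map, was near its detection limit. Cpr47Ed passed the count rule only through the wild type males, so its choice was not independent of its higher level there. It had 0.566, 0.863, 0.753 and 0.774 CPM in wild type males (91 counts in all), 8 counts over the 4 PofD119 males (−2.91 ± 0.61, adjusted p = 0.00179) and 4 counts over the 4 Zhr1 males (−3.38 ± 0.71, adjusted p = 0.00203).

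The 6 Ccp84A genes (3R:6686728-6704903) did not move together. Ccp84Aa (FBgn0004783, 3R:6704084-6704903) was lower in both sexes of Zhr1 and PofD119, and these calls held without any 1 library. It had 5.1, 6.9, 7.02 and 6.51 CPM in wild type females and 1.08, 0.93, 0.553 and 1.53 CPM in Zhr1 females, 6.43-fold lower (−2.69 ± 0.25, adjusted p = 1.64e-06). In males the values were 8.6, 7.45, 7.58 and 13.1 CPM against 2.2, 2, 2.75 and 0.839 CPM, 4.48-fold lower (−2.16 ± 0.25, adjusted p = 5.69e-06). Both Zhr1 groups lay wholly below wild type. PofD119 had 3.41 CPM in females (−0.92 ± 0.22, adjusted p = 0.00841) and 4.11 CPM in males (−1.16 ± 0.22, adjusted p = 0.00096), whereas PoX2Df1.688 had 7.02 and 9.26 CPM and was not called.

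Its neighbour Ccp84Ab, named after its values were seen, went the other way in Zhr1 males, with 25.0, 22.7, 20.6 and 19 CPM beside 11.2, 11.8, 13.1 and 18.3 CPM in wild type (0.72 ± 0.17, adjusted p = 0.00449). The groups did not overlap, although wild type replicate 4 came close. Ccp84Ad fell in Zhr1 females from 2.85, 2.06, 3.54 and 3.58 to 1.2, 0.672, 0.905 and 1.07 CPM (−1.68 ± 0.30, adjusted p = 0.000505). Ccp84Ac fell there from 0.53, 0.8, 1.03 and 0.732 to 0.239, 0.207, 0.201 and 0.266 CPM (−1.77 ± 0.54, adjusted p = 0.0155). For both genes the ranges were separate.

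Ccp84Ag and Ccp84Ae changed in other mutants. Ccp84Ag had 1.32, 1.6, 2.51 and 2.09 CPM in wild type females and 0.462, 0.524, 0.333 and 0.809 CPM in PofD119 females (−1.84 ± 0.38, adjusted p = 0.00364). It was also lower in PoX2Df1.688 males (−1.67 ± 0.46, adjusted p = 0.0147), where wild type replicate 2 at 0.706 CPM overlapped the mutant. Ccp84Ae had 14 counts over the 4 wild type females and 70 over the 4 PoX2Df1.688 females, in which it was at 0.74, 1.07, 1.19 and 1.36 CPM (3.15 ± 0.61, adjusted p = 0.00183). It is a gene at the edge of detection in these flies.

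**Figure D3:**
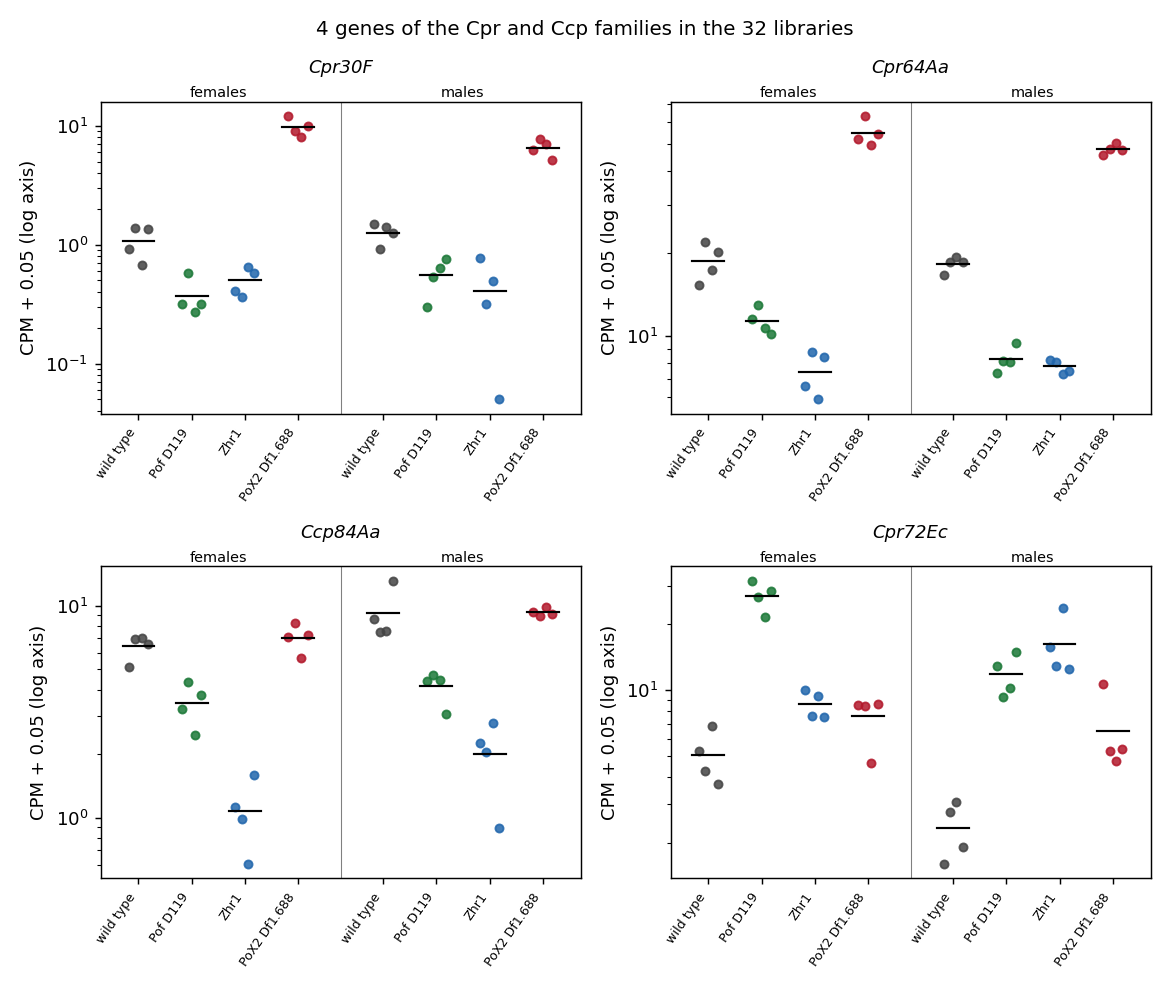
TMM-scaled CPM plus 0.05 on a log axis for Cpr30F, Cpr64Aa, Ccp84Aa and Cpr72Ec in the 8 groups, with a point for each library and a line at the mean. Cpr64Aa is at 45.5 to 63.3 CPM in PoX2Df1.688 and under 13 CPM in PofD119 and Zhr1, Ccp84Aa is lowest in Zhr1, and Cpr72Ec is above wild type in PofD119 of both sexes.

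Cpr72Ec and Cpr66D encode proteins of the corneal lens, the clear cuticle over each facet of the eye. Cpr72Ec (FBgn0036619, 3L:16365894-16367340) had 5.23, 4.22, 6.78 and 3.66 CPM in wild type females and 31.7, 26.5, 21.5 and 28.4 CPM in PofD119 females, a 5.39-fold rise (2.43 ± 0.21, adjusted p = 8.62e-07). In males wild type had 1.55, 2.71, 3.01 and 1.86 CPM and PofD119 had 12.8, 9.26, 10.1 and 14.9 CPM, a 5.16-fold rise (2.37 ± 0.29, adjusted p = 1.14e-05). The mutant libraries were well above wild type in both sexes.

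Zhr1 males had the highest male levels of Cpr72Ec, at 15.7, 12.8, 23.8 and 12.4 CPM (7.29-fold, 2.87 ± 0.29, adjusted p = 1.37e-06). PoX2Df1.688 males, at 10.7, 5.19, 4.7 and 5.33 CPM, were 2.9-fold above wild type (adjusted p = 0.0016). The rise was smaller in Zhr1 females, at 9.93, 7.54, 9.3 and 7.46 CPM (0.76 ± 0.21, adjusted p = 0.0102), and it was not called in PoX2Df1.688 females (0.61, adjusted p = 0.0557). The other lens genes did not share a single pattern. Of the 4 lens genes read (Cpr72Ec, Cpr66D, Crys and retinin), 2 were called higher in Zhr1 males, Cpr72Ec among them, and 0 lower (all genes 12.6% and 10.4%). In Zhr1 females 1 was higher and 3 lower (all genes 20.3% and 20.8%). Cpr66D was at 2.72, 1.39, 2.65 and 2.71 CPM in wild type females, lower in Zhr1 females (1.26 CPM, −0.92 ± 0.24, adjusted p = 0.00732) and higher in PoX2Df1.688 females (4.39 CPM, 0.91 ± 0.23, adjusted p = 0.00937). Crys and retinin, which also encode lens proteins but are not members, were not called higher in PofD119, and retinin was lower there (−1.27 in females, adjusted p = 0.00103, and −1.60 in males, adjusted p = 0.000299).

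Some other Cpr genes of arm 3L rose as well. Cpr72Ea, beside Cpr72Ec on the map, had 22 counts over the wild type males and 56 over the Zhr1 males (2.37 ± 0.66, adjusted p = 0.0146). Cpr76Bb rose in PofD119, from 0.398, 0.493, 1.1 and 0.366 to 2.62, 2.14, 1.33 and 2.92 CPM in females (3.76-fold, adjusted p = 0.0019) and from 0.417, 1.18, 1.29 and 1.34 to 3.59, 3.81, 4.32 and 3.46 CPM in males (3.6-fold, adjusted p = 0.000244). Its ranges were separate in both sexes. Cpr73D was very even among replicates, with 8.81, 8.63, 8.6 and 8.51 CPM in wild type males. It rose to 18, 15.4, 17.5 and 16.1 CPM in PofD119 males (0.96 ± 0.09, adjusted p = 2.81e-07) and to 15.5, 16.2, 16.5 and 15.1 CPM in PoX2Df1.688 males (0.93 ± 0.09, adjusted p = 7.18e-07). The gene overlaps Obp73a and Ogdh in part, both on the other strand, and pairs over exons of 2 genes were not counted.

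The Tweedle genes held the most uneven pattern of the set. TwdlD (FBgn0039444, 3R:26640025-26641054), the gene whose mutants gave the family its name, was at 4.94, 4.33, 6.29 and 8.23 CPM in Zhr1 males, 368 counts in all. Wild type males had 4 counts, all in replicate 1, and no library of any group but Zhr1 males was above 0.175 CPM. The test of Zhr1 against wild type males gave a log2 fold change of 7.32 ± 0.59 (adjusted p = 6.19e-08), a size that rests on those 4 wild type counts. TwdlD passed the count rule only through the 4 Zhr1 males, so its choice as a member was not independent of its high level there. Within Zhr1 the 4 males had 368 counts and the 4 females 2, a ratio of 208 with a 95% interval of 57.2 to 1725 that covers counting error only. With every 2 counts taken as 1 fragment, an alternative added after the data were seen, the interval was 36.9 to 8267.

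TwdlP (3R:26620608-26621364), close to TwdlD on the same arm, changed in the opposite direction in Zhr1 males. It had 1.22, 0.666, 1.02 and 0.527 CPM in wild type males (111 counts) and no count in any Zhr1 male, at least 4.43-fold lower when each library is given a floor of 3 counts (2.21-fold if 2 counts are 1 fragment; adjusted p = 8.18e-05). It was higher in PofD119 males, at 3.65, 2.3, 2.88 and 1.71 CPM (2.99-fold, adjusted p = 0.00278). In PoX2Df1.688 males it had 2.41, 1.71, 2.64 and 1.11 CPM (1.22 ± 0.35, adjusted p = 0.0219), a call that was lost without PoX2Df1.688 replicate 1 or 3 or wild type replicate 4 (adjusted p 0.0608, 0.0749 and 0.063). The 4 female groups held 0 to 2 counts each, so nearly all TwdlP counts were in males of wild type, PofD119 and PoX2Df1.688.

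TwdlL, which neighbours TwdlP (together 3R:26620608-26625652), had no count in any of the 16 female libraries. Wild type males had 0.238, 0.235, 0.161 and 0.246 CPM (27 counts). It was called higher in PofD119 males (1.38 ± 0.42, adjusted p = 0.0219), Zhr1 males (1.46, adjusted p = 0.0213) and PoX2Df1.688 males (1.43, adjusted p = 0.029). None of the 3 calls held without every library in turn. In PofD119 the call was lost without PofD119 replicate 3 (adjusted p = 0.0558) or wild type replicate 3 (adjusted p = 0.0744), in Zhr1 without Zhr1 replicate 2, 3 or 4 or wild type replicate 3 (adjusted p 0.0592 to 0.0658), and in PoX2Df1.688 without PoX2Df1.688 replicate 2 or 3 or wild type replicate 1, 3 or 4 (adjusted p 0.053 to 0.136).

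Other Twdl genes fell or rose more modestly. TwdlG fell in PofD119 males from 5.89, 3.84, 3.58 and 4.57 to 2.39, 1.06, 1.94 and 2.06 CPM (−1.27 ± 0.26, adjusted p = 0.00163). TwdlT fell in Zhr1 males from 7 ± 0.45 to 3.35 CPM (−1.02 ± 0.16, adjusted p = 0.000134), and it lies within RYa-R on the same strand, so unspliced RNA of RYa-R over its exons would be counted as TwdlT. TwdlV, named outside the rule for genes to be named, rose in Zhr1 males from 0.268, 0.157, 0.484 and 0.703 to 1.31, 0.733, 1.52 and 1.22 CPM (1.59 ± 0.40, adjusted p = 0.00791). TwdlX, TwdlY, TwdlZ and Twdlalpha form an X-linked cluster (X:16731091-16744365) nested in the gene goe. Its summed level was 6.66 CPM in wild type females and 26 CPM in wild type males, nearly all of the difference coming from Twdlalpha. TwdlY rose in Zhr1 females from 1.42, 0.985, 0.929 and 0.805 to 1.74, 2.43, 1.41 and 2 CPM (adjusted p = 0.028, lost in 5 of 8 fits with 1 library left out). Twdlbeta fell in PoX2Df1.688 males from 1.25, 1.8, 1.45 and 2.53 to 0.602, 0.855, 0.997 and 0.318 CPM (adjusted p = 0.0384, also lost in 5 of 8).

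**Figure D4:**
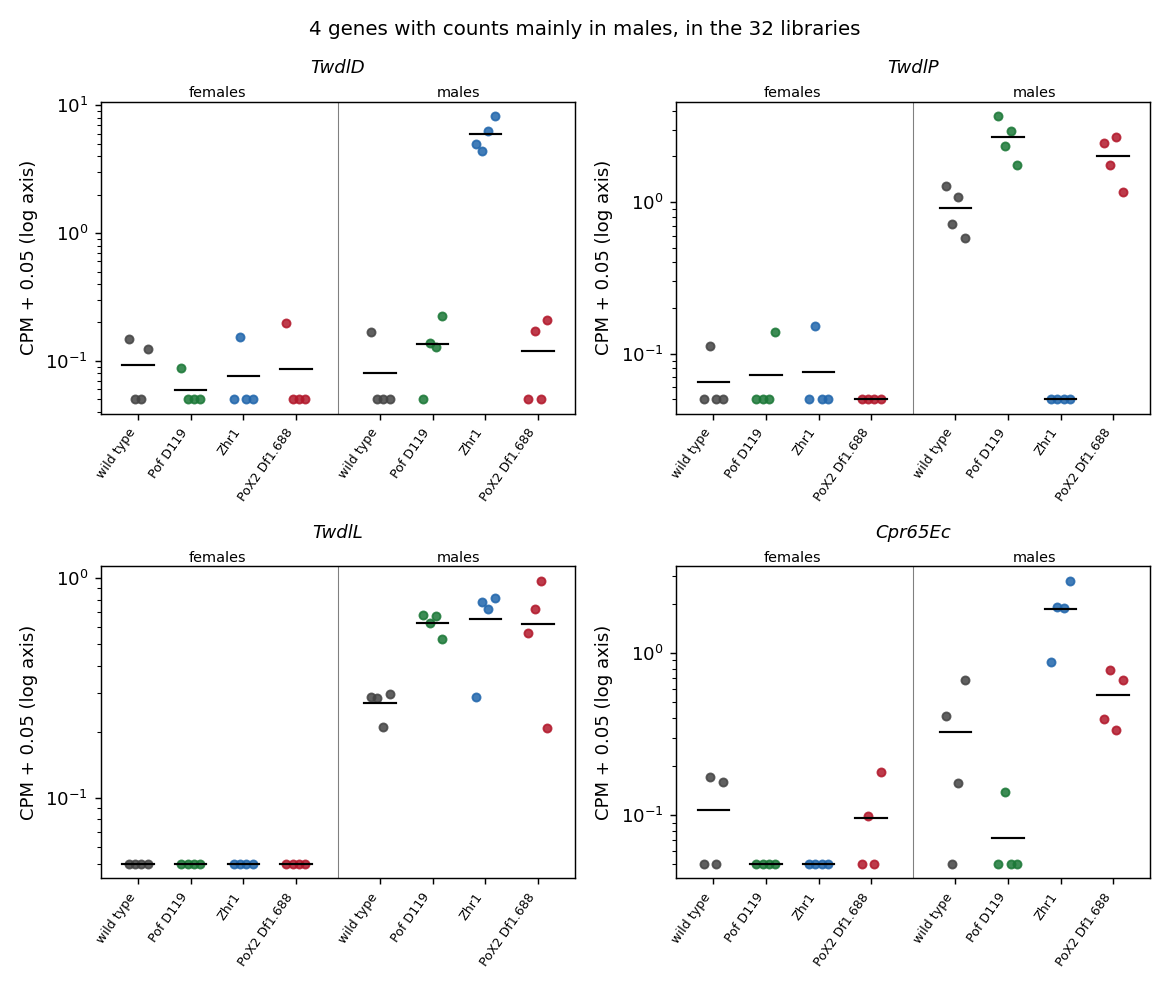
TMM-scaled CPM plus 0.05 on a log axis for TwdlD, TwdlP, TwdlL and Cpr65Ec in the 8 groups, with a point for each library and a line at the mean. TwdlD is raised in Zhr1 males alone (4.33 to 8.23 CPM), TwdlP is at 0 in all 4 of those libraries, and TwdlL is at 0 in every female library.

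Cpr23B, Cpr65Ec, Cpr31A and Cpr56F were mostly expressed in males in wild type. Cpr23B (2L:2838411-2839547) had 0.834, 1.14, 0.968 and 0.774 CPM in wild type males (115 counts), 8 counts over the 4 PofD119 males (−3.25 ± 0.66, adjusted p = 0.00152) and 6 counts over the 4 Zhr1 males (−3.17 ± 0.71, adjusted p = 0.00342). Cpr23B passed the count rule only through the wild type males, so its choice was not independent of its higher level there. PoX2Df1.688 males had 0.344, 0.611, 0.142 and 0.159 CPM, below every wild type library, but the test missed the threshold (−1.44, adjusted p = 0.0908). Cpr65Ec (3L:7093204-7093841) rose in Zhr1 males, with 0.834, 1.87, 1.85 and 2.74 CPM beside 0.357, 0, 0.108 and 0.633 CPM in wild type (2.72 ± 0.59, adjusted p = 0.0025). Cpr65Ec in turn passed the count rule only through these Zhr1 males. Zhr1 females had no count of it, so within Zhr1 it was at least 10.6-fold higher in males at a floor of 3 counts per library (5.32-fold if 2 counts are 1 fragment).

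Cpr56F (2R:20288371-20291945) was lower in the males of all 3 mutants. It had 10.7, 8.86, 11.3 and 9.42 CPM in wild type males, 6.42, 6.16, 5.48 and 5.74 CPM in PofD119 (−0.76 ± 0.18, adjusted p = 0.00442) and 7.33, 4.66, 4.32 and 5.79 CPM in Zhr1 (−0.83 ± 0.18, adjusted p = 0.00303). PoX2Df1.688 males had 4.81, 3.6, 4.35 and 7 CPM (−0.98 ± 0.19, adjusted p = 0.00116). All 12 mutant males lay below all 4 wild type males. Wild type females had 0.994, 1.11, 1.38 and 1.1 CPM, and PofD119 females, at 0.154, 0.524, 0.407 and 0.449 CPM, were lower still (−1.59 ± 0.41, adjusted p = 0.0144). The gene overlaps CkIIbeta2, on the other strand, in part. Cpr50Ca had 0.994, 1.05, 0.757 and 1.1 CPM in wild type females. It was lower in PofD119 females, at 0.193, 0.349, 0 and 0.359 CPM (adjusted p = 0.0241), and in Zhr1 females, at 0.359, 0.103, 0.201 and 0.533 CPM (adjusted p = 0.0327). With 1 library left out, the PofD119 call was lost in 4 of 8 fits and the Zhr1 call in 6 of 8.

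Cpr92A (3R:19597502-19598955) fell in the females of Zhr1 and PoX2Df1.688. It had 39.4, 40.6, 43.5 and 50.3 CPM in wild type females and 7.3, 7.8, 7.49 and 6.79 CPM in Zhr1 females, 6.0-fold lower (−2.58 ± 0.21, adjusted p = 3.65e-07). PoX2Df1.688 females had 17, 25, 13.4 and 14.2 CPM (−1.30 ± 0.20, adjusted p = 0.000247). Both mutants were far below wild type. The call in PofD119 females (−0.68, adjusted p = 0.023) was lost without PofD119 replicate 1 or 4 or wild type replicate 4 (adjusted p 0.0652 to 0.072), and that in Zhr1 males (−0.45, adjusted p = 0.0382) without any 1 of the Zhr1 replicates or without wild type replicate 2 or 4 (adjusted p 0.0504 to 0.153).

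Cpr49Ac (2R:12386666-12390057) varied widely among replicates of 1 group. Wild type males had 1.76, 14.5, 18.6 and 5.06 CPM, Zhr1 males 36.2, 51.6, 31.5 and 46.7 CPM and PoX2Df1.688 males 29.9, 29.4, 42.2 and 27.9 CPM. Both mutants were above wild type, by 2.08 ± 0.58 in Zhr1 (adjusted p = 0.0141, and 0.0508 without wild type replicate 4) and by 1.74 ± 0.58 in PoX2Df1.688 (adjusted p = 0.0397). The second call was lost without any 1 of the PoX2Df1.688 replicates or without wild type replicate 1 or 4 (adjusted p 0.0589 to 0.115), and with DESeq2 (adjusted p = 0.0676).

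The replicate spread of Cpr49Ac moved with the larval fat body, the storage tissue that newly hatched flies carry over from the larva and then lose. The summed level of 6 of its marker genes, Lsp1alpha, Lsp1beta, Lsp1gamma, Lsp2, Fbp1 and Fbp2, was 141, 1160, 1367 and 438 CPM in wild type males, in the same order of replicates as Cpr49Ac. In PofD119 males it was 268, 2451, 522 and 1429 CPM while Cpr49Ac was at 0.818, 15.5, 3.03 and 9.24 CPM. Zhr1 males summed to 3225 to 5464 CPM and PoX2Df1.688 males to 3054 to 4398 CPM, above every wild type and PofD119 male. PofD119 females summed to 1956 to 2551 CPM, above the 829 to 1487 CPM of wild type females. Their Cpr49Ac, at 11.9 to 16.8 CPM, nevertheless lay inside the wild type female range of 9.77 to 19.6 CPM. Of the 6 markers, 5 were called higher and 1 lower in Zhr1 males (all genes 12.6% and 10.4%). In PoX2Df1.688 males 6 of 6 were higher (all genes 11.5%). The marker called lower in Zhr1 males, Lsp1alpha, was at 0 CPM in Zhr1 females and 0.0149 CPM in Zhr1 males.

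Over the 32 libraries, with each group's mean removed from both log2 values, Cpr49Ac and the marker sum had Pearson's r = 0.974 (permutation p = 1e-05, the smallest that 100000 draws can give) and, with ranks taken within groups, Spearman's rho = 0.725 (permutation p = 0.00017). This relation was looked for after the values were seen, in 48 cuticle genes, and Cpr49Ac was the only 1 of the 48 with an adjusted p under 0.05 (0.00048, Benjamini-Hochberg). The next highest r was 0.27, for Cpr97Ea. Without the 2 libraries farthest from the median of the marker sum r was 0.968. The part of the larval fat body in the Zhr1 and PoX2Df1.688 male calls of Cpr49Ac was not tested.

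**Figure D5:**
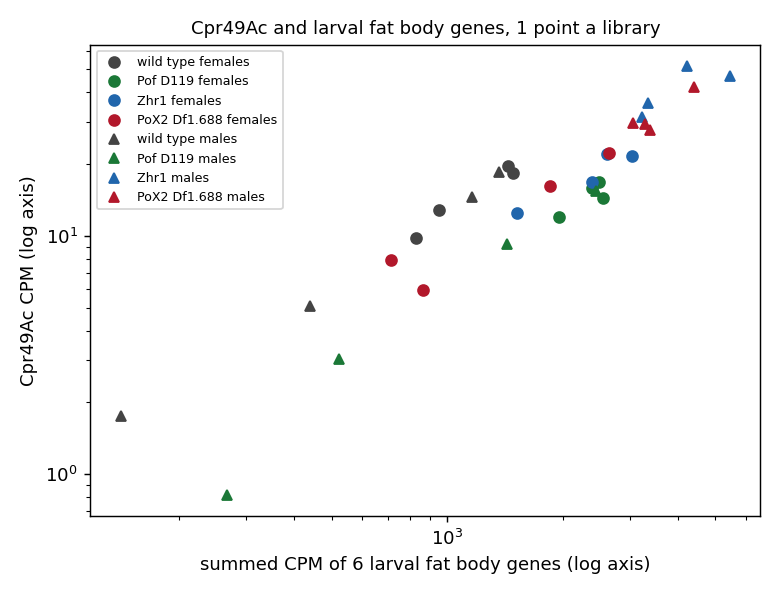
Cpr49Ac level against the summed level of 6 larval fat body genes, both in TMM-scaled CPM on log axes, with a point for each of the 32 libraries coloured by genotype and marked by sex. Within groups the 2 levels mostly rise together, for example from PofD119 male replicate 1 (0.818 CPM of Cpr49Ac, 268 CPM of the markers) to PofD119 male replicate 2 (15.5 and 2451 CPM). Between groups this does not always hold, as PofD119 females have more of the markers than wild type females at similar Cpr49Ac levels.

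Male and female levels were compared within each genotype in a fit of all 32 libraries, in which 69 of the 72 genes were tested. In wild type 22 were higher in males and 12 higher in females, where 34.3% and 26.4% of all genes were called. In PofD119 the counts were 15 and 13 (all genes 32.9% and 28.9%), in Zhr1 32 and 7 (43% and 27.7%) and in PoX2Df1.688 21 and 9 (36.3% and 25.6%). As shares of the cuticle genes tested, those higher in females were 17.4, 18.8, 10.1 and 13% in the same order of genotypes, each below the share of all genes. Without wild type female replicate 3 the 22 male-high genes of wild type became 13, and without Zhr1 female replicate 1 the 7 female-high genes of Zhr1 became 11.

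The genes most biased to wild type males were low or without counts in wild type females. Cpr31A (2L:10054213-10055935) had 3.33, 2.59, 2.15 and 2.18 CPM in wild type males and 6 counts over the 4 wild type females (5.50 ± 0.58, adjusted p = 2.54e-09). TwdlP had 111 counts against 2, a ratio of 53.0 (95% counting interval 14.3 to 443, or 9.13 to 2130.1 if 2 counts are 1 fragment). TwdlL was at least 2.18-fold higher in males at a floor of 3 counts per library (1.09-fold if 2 counts are 1 fragment), and Cpr56F was 8.79-fold higher (3.14 ± 0.27, adjusted p = 8.63e-12). Twdlalpha (X:16742847-16744365) was at 2.78 ± 0.093 CPM in wild type females and 22.8 ± 1.21 CPM in wild type males, and the male excess was 8.18-fold in wild type, 6.75-fold in PofD119, 7.61-fold in Zhr1 and 7.93-fold in PoX2Df1.688. It was called higher than wild type in Zhr1 females (adjusted p = 0.0217) and Zhr1 males (adjusted p = 0.0196). The female call was lost without wild type replicate 3 or 4 or Zhr1 replicate 2 (adjusted p 0.0502 to 0.0619). The male call was lost without Zhr1 replicate 2 or 4 (adjusted p 0.0561 and 0.0638).

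On the female side were Lcp65Ag2, TwdlT, Cpr11A and Lcp65Ac. Lcp65Ag2, which has near-identical copies beside it and may be undercounted because pairs that map to several copies were left out, had 1.19, 1.35, 1.72 and 1.43 CPM in wild type females and 0.208, 0.118, 0 and 0.105 CPM in wild type males (−3.68 ± 0.62, adjusted p = 6.4e-06). TwdlT had 19 ± 1.65 CPM in females and 7 ± 0.45 CPM in males (−1.44, adjusted p = 1.97e-08). The X-linked Cpr11A had 2.68, 1.23, 2.51 and 2.41 CPM in females and 0.744, 0.823, 0.538 and 1.05 CPM in males (−1.49 ± 0.39, adjusted p = 0.00141). No male reached the female range for any of these 3 genes. The call of Lcp65Ac (−2.24, adjusted p = 0.0406) was lost without female replicate 1, 3 or 4 or male replicate 2, 3 or 4 (adjusted p 0.0633 to 0.0965), and with DESeq2 (adjusted p = 0.0627).

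Whether a mutant's change differed between the sexes was tested as an interaction, male change minus female change on the log2 scale. In Zhr1 it was positive for 9 of 69 cuticle genes and negative for 3, where all genes gave 9.46% and 13.6%. The counts were 5 without Zhr1 female replicate 3 for the positive, and 1 without wild type female replicate 1 or 2 or Zhr1 female replicate 2 for the negative. In PoX2Df1.688 they were 1 and 1 (all genes 2.93% and 2.86%). In PofD119 they were 0 and 0 with edgeR (all genes 0.731% and 0.681%), with 3 genes at an unadjusted p under 0.05 and 1 call with DESeq2.

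The interactions of Cpr92A and Cpr72Ec came from genes that were higher in wild type females and higher in Zhr1 males. Cpr92A was −1.07 in male against female wild type (adjusted p = 4.64e-06) and 1.01 in Zhr1 (adjusted p = 3.42e-05), an interaction of 2.07 ± 0.26 (adjusted p = 4.89e-06). Cpr72Ec was −1.12 in wild type (adjusted p = 0.000649) and 0.92 in Zhr1 (adjusted p = 0.00193, and 0.0754 without Zhr1 male replicate 3), an interaction of 2.04 ± 0.37 (adjusted p = 0.00044). For both genes the order of the sexes was thus exchanged. TwdlD had an interaction of 7.80 ± 1.74 (adjusted p = 0.00242), which follows from its 368 counts in Zhr1 males and 2 to 5 counts in each of the other 3 groups of the test. It is a member only through those Zhr1 males.

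The lens gene Cpr66D rose in PoX2Df1.688 females and was not called in males (3.55 ± 0.635 CPM beside 5.19 ± 0.875 in wild type males), an interaction of −1.45 ± 0.33 (adjusted p = 0.00964). Cpr92A fell in PoX2Df1.688 females more than in males (1.08 ± 0.26, adjusted p = 0.0116). Ccp84Ad, lower in Zhr1 females, had an interaction of 1.30 ± 0.38 with Zhr1 (adjusted p = 0.0138). Cpr100A, also lower there, had one of 0.64 ± 0.19 (adjusted p = 0.0158) whose call was lost without wild type male replicate 1 (adjusted p = 0.0516) or Zhr1 female replicate 1 or 3 (adjusted p = 0.0613 and 0.0552).

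Genes with related roles were read from lists beside the cuticle genes, in the 6 comparisons of a mutant with wild type. Over all genes tested the shares called higher and lower there were 8.08% and 8.4% in PofD119 females, 13.6% and 11.6% in PofD119 males, 20.3% and 20.8% in Zhr1 females, 12.6% and 10.4% in Zhr1 males, 8.9% and 10.5% in PoX2Df1.688 females and 11.5% and 9.4% in PoX2Df1.688 males. Of 18 other cuticle protein genes, 15 were tested in females, where 0 were higher and 6 lower in PofD119, 0 and 11 in Zhr1 and 1 and 2 in PoX2Df1.688. In males 14 were tested, and 1 was higher and 5 lower in PofD119, 3 and 5 in Zhr1 and 1 and 1 in PoX2Df1.688. Acp1, an adult cuticle protein gene as abundant as the leading Cpr genes, was lower in all 6 comparisons, from 997 ± 110.4 CPM in wild type females to 529, 422 and 525 CPM and from 1236 ± 134 CPM in wild type males to 619, 711 and 703 CPM in PofD119, Zhr1 and PoX2Df1.688 (adjusted p 0.000125 to 0.00433). The gene resilin, which encodes the rubber-like protein of elastic cuticle, was higher in the males of all 3 mutants, by 1.38, 1.28 and 0.91 on the log2 scale in the same order (adjusted p 0.000259, 0.000675 and 0.0132).

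Beside the shares of all genes just given, of 14 genes of chitin synthesis and assembly, 11 were lower and 1 higher in Zhr1 females, and 6 were lower and 1 higher in Zhr1 males. In PofD119 5 were lower and 1 higher in females, and 4 were lower and 1 higher in males, whereas in PoX2Df1.688 the females had 1 lower and 0 higher and the males 4 higher and 0 lower. Of 8 tanning and melanin genes 0 were higher and 6 lower in Zhr1 females, 1 and 3 in PoX2Df1.688 females, 1 and 1 in PofD119 females, 0 and 2 in PofD119 males, 1 and 1 in Zhr1 males and 1 and 2 in PoX2Df1.688 males. Of 12 regulators of the ecdysone response, through which moults are timed, at most 3 were called in 1 direction in any of these 6 comparisons. The 6 post-eclosion signalling genes tested gave at most 2 calls in 1 direction there.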

How the data were processed

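RNA of whole adult flies was depleted of ribosomal RNA and sequenced in paired reads. As the study's methods state, the authors trimmed reads with Trimmomatic 0.36, removed ribosomal reads with SortMeRNA, aligned the rest with STAR 2.5.4b to the fly genome (dm6) and counted reads per gene with featureCounts 1.6.3. Per the file header the command asked for read pairs with both mates aligned and set no option for strand, multi-mapping or multi-overlap, so that the program's defaults leave out pairs that map or overlap more than once. The excess of even low counts leaves it unclear whether each pair gave 1 count. The deposited values are raw counts per gene, not normalized, and the gene table gives symbols for 17287 of 17490 genes. Cuticle genes whose copies are alike can therefore be undercounted, and reads of overlapping exons are missing.

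Groups were taken from the sample labels. Counts were analysed with edgeR 4.0.16 in R 4.3.3 (filterByExpr, TMM scaling, glmQLFit and glmQLFTest), with 16 libraries of 1 sex for mutant against wild type and all 32 for sex and interaction tests, and p-values were adjusted by Benjamini-Hochberg over every gene tested (11938 in females, 13503 in males, 13948 in all). The same code was tested on simulated counts. A count of 0 was given a floor of 3 counts per library, and 95% intervals of count ratios are exact for counting error only. Alternatives were DESeq2 1.42.0, no filter on low counts, 1 fit for both sexes, a replicate block, leaving out each library and, added after the data were seen, taking 2 counts as 1 fragment. Genes to be named were the 6 with the highest CPM per kb, up to 4 with the largest rise and fall in each mutant comparison and in the sex difference of wild type, and up to 4 interactions per genotype, 41 in all. The cuticle genes and all lists were chosen with earlier results of these data known, and genes named for other reasons are said to be so. Of 15 tanning and melanin symbols 8 matched the table, and of 13 ecdysone response symbols 12 did.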

Additional observations from a re-analysis of the deposited data

Results flagged for a closer look

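Among 270 groups of 4 libraries examined for a library far from the other 3, 22 held one, where chance gives about 1 in 20. In the summed levels these were PofD119 female replicate 4, low at 2842 CPM over the 72 cuticle genes and 2791 CPM over the Cpr genes, and PoX2Df1.688 female replicate 2, high at 4140 and 4069.8 CPM. The latter library was also high for Cpr49Ae (1229.8 CPM) and Cpr97Eb (171 CPM). Without it 7 cuticle genes were higher and 9 lower in PoX2Df1.688 females. PoX2Df1.688 male replicate 4 was low in the summed Twdl genes (36.3 CPM).

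Low libraries of single genes were wild type female replicate 1 for Cpr49Ae (1171 CPM), Cpr62Bc (203 CPM) and Twdlbeta (1.32 CPM), wild type female replicate 2 for Cpr66D (1.39 CPM), wild type male replicate 1 for Cpr100A (582 CPM), Zhr1 male replicate 4 for Cpr92A (11.9 CPM), Zhr1 male replicate 1 for TwdlL (0.238 CPM) and PoX2Df1.688 female replicate 3 for Cpr72Ec (4.56 CPM). High libraries were wild type female replicate 4 for Cpr49Ab (212 CPM), Zhr1 male replicate 1 for Cpr11A (1.97 CPM), Zhr1 female replicate 3 for Cpr66D (1.46 CPM), and in PoX2Df1.688 males replicate 1 for Cpr72Ec (10.7 CPM) and Cpr64Ad (1.89 CPM), replicate 2 for Cpr49Ae (942 CPM) and replicate 3 for Cpr49Ac (42.2 CPM).

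Among the genes under the naming rule, changes that differed between the sexes in edgeR's test of the interaction (male minus female change, log2) were, in Zhr1, TwdlD at 7.80, Cpr65Ec at 6.15, Cpr92A at 2.07, Cpr72Ec at 2.04, Ccp84Ad at 1.30 and Cpr100A at 0.64, and TwdlP at −7.80, Cpr31A at −2.73 and Cpr56F at −1.06. In PoX2Df1.688 they were Cpr92A at 1.08 and Cpr66D at −1.45. The sizes for TwdlD, TwdlP and Cpr65Ec rest on groups with 0 to 7 counts over their 4 libraries. TwdlD and Cpr65Ec passed the count rule only through the Zhr1 males. The call of TwdlP (adjusted p = 0.0229) was lost without Zhr1 female replicate 2 (adjusted p = 1), the library that holds the 2 counts of the Zhr1 females. That of Cpr65Ec (adjusted p = 0.0353) was lost without wild type female replicate 2 or 4 or any 1 of the Zhr1 females (adjusted p 0.05 to 0.121), and that of Cpr31A (adjusted p = 0.0284) without wild type female replicate 1 or 2 or Zhr1 female replicate 2 or 3 (adjusted p 0.0561 to 0.0847). That of Cpr56F (adjusted p = 0.0456) was lost without any 1 of wild type male replicates 1, 3 and 4, Zhr1 male replicates 2, 3 and 4, wild type female replicates 1, 2 and 4 and Zhr1 female replicates 1 and 4 (adjusted p 0.0504 to 0.114).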

How the results depend on the processing

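Under DESeq2, RLE scaling, other filters on low counts, other sets of libraries in the fit and a replicate block, 135 of 136 counts of called cuticle genes stayed within 1.5 times. The exception was the PofD119 interaction, where DESeq2 called 1 gene higher and edgeR 0. With 1 library left out, 237 of 256 counts did, and the moved counts ranged as follows (main count in parentheses): PofD119 females 9 to 14 lower (14); PofD119 males 4 to 9 higher (8) and 10 to 15 lower (16); Zhr1 females 1 to 3 higher (3); Zhr1 males 10 to 17 lower (16); PoX2Df1.688 females 2 to 9 lower (6); PoX2Df1.688 males 9 to 16 higher (14); wild type 13 to 20 higher in males (22); Zhr1 7 to 11 higher in females (7); and the Zhr1 interaction 5 to 9 higher (9) and 1 to 3 lower (3). No named gene changed direction. In the settings other than left-out libraries 5 of 344 tests of named genes lost the threshold, 3 of them besides those given above: Cpr50Ca in Zhr1 females without a filter (adjusted p = 0.054), and under the block Cpr64Ad in PofD119 females (adjusted p = 0.0509) and Twdlbeta in PoX2Df1.688 males (adjusted p = 0.0623). The cause was not tested. With 1 library left out, 57 of 536 did.

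Replicate numbers are shared by the groups, but same-numbered libraries did not deviate together (r −0.226 to 0.155 over 24 pairs, median −0.007), so they were not read as pairs. With the replicate number as a block the counts of higher and lower cuticle genes were 5 and 14 in PofD119 females, 8 and 16 in PofD119 males, 3 and 22 in Zhr1 females, 12 and 14 in Zhr1 males, 8 and 7 in PoX2Df1.688 females and 12 and 8 in PoX2Df1.688 males. Depth limits the genes under 1 CPM, where a library of 12186486 counts holds few reads of a gene.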

Other observations

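The larval and pupal cuticle genes still detected were called in no mutant comparison in which they were tested (Lcp65Ac and Lcp65Ag2 were tested in females only). Values of Pcp and Lcp1 are given outside the naming rule. Pcp had 2.22, 2.37, 1.62 and 2.52 CPM in wild type females and 1.01, 2.27, 1.88 and 1.2 CPM in wild type males, and it lies within Gart on the other strand, so that unspliced RNA of Gart over its exons would be counted as Pcp. Lcp1 had 0.644 ± 0.346 CPM in wild type females and 0.575 ± 0.214 CPM in wild type males (SD, n = 4 each). The summed Lcp genes were at 2.40 ± 0.384 CPM in wild type females and 0.745 ± 0.16 CPM in wild type males, with no overlap between the sexes.

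Cpr65Au, next to Lcp65Ag2 on the map (3L:6131242-6133593), was higher in females of every genotype, at 41.4 ± 9.06 CPM in wild type females and 19.2 ± 3.52 CPM in wild type males (edgeR log2 −1.11 ± 0.18, adjusted p = 2.38e-06), and it was called in no mutant. Cpr66Cb was higher in males of every genotype, at 0.227 ± 0.125 CPM in wild type females and 1.22 ± 0.442 CPM in wild type males (log2 2.40 ± 0.53, adjusted p = 0.000254). Both were picked out after their values were seen.

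The 7 genes called in both directions across the 6 comparisons were Cpr30B, Cpr30F, Cpr47Ef, Cpr64Aa, Cpr65Ec, Cpr66D and TwdlP. Of the 21 genes called in no mutant, Cpr65Au was the highest at 33.7 CPM over the 32 libraries, followed by Cpr11B at 2.52 CPM.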
